A study of Homo sapiens with 20 samples.

Results

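The genes described here are 9 proteins that read or write methylated adenosine in RNA outside the METTL3 complex: the readers IGF2BP1, IGF2BP2, IGF2BP3, HNRNPA2B1 and HNRNPC, and the methyltransferases METTL16, METTL5, ZCCHC4 and PCIF1. They were chosen by name, as 9 of the 20037 protein-coding genes of the RefSeq table used (autosomes, X and Y). Every interval of a deposited peak list that overlapped the gene body or 20 kb either side was taken, which gave 255 intervals of 292390 in all. The assay was ATAC-seq, which tags accessible DNA with a transposase loaded with adapters, and the cells were LOVO and RKO, both colon adenocarcinoma lines. Each line had 4 groups: shMETTL3 (short hairpin RNA against METTL3) with olaparib, shControl (control hairpin) with olaparib, untreated shMETTL3, and untreated shControl. Olaparib inhibits poly(ADP-ribose) polymerase, an enzyme of DNA strand-break repair; the sources used here give neither dose nor time of treatment. By the labels there are 20 samples, 2 in each group except untreated shControl, which has 4 per line, 2 of them labelled as a second batch. The cells carry hairpins, not knockouts, and whether a hairpin line is 1 clone is not given.

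The lists are of groups and not of samples, so no replicate error, p-value or test could be had, and every comparison below is a description of 2 lists. There are 5 lists per line. The lists of shMETTL3 with olaparib and of shControl with olaparib, and 1 of the lists of untreated shControl, carry a score per interval and are called scored. The untreated shMETTL3 list and the other untreated shControl list give intervals only and are called merged. The lists ran from 6916 intervals (RKO untreated shMETTL3) to 51462 (LOVO shMETTL3 with olaparib). The untreated shMETTL3 lists, with 16417 intervals in LOVO and 6916 in RKO, were shorter than the merged shControl lists, with 33474 and 27978. Depth is unknown from such lists, so an interval that is missing does not show closed chromatin. Scores are the authors' own values for a peak and are used here only to rank intervals within a list. Which shControl list holds the samples of the second batch is not given, so batch and group cannot be told apart. METTL3 itself had an interval at a gene end in all 10 lists; a hairpin acts on RNA, so this checks no knockdown. Of 8 colon epithelium genes, 3 to 8 were open at an end in the LOVO lists and 1 to 4 in the RKO lists, with KRT8 in all of them, against at most 2 of 5 mesenchyme, 2 of 5 leukocyte and 2 of 3 neuron genes. VIL1, CDH1, KRT20 and CDX1 had no interval at an end in any RKO list.

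N6-methyladenosine (m6A) is written on messenger RNA mainly by METTL3 together with METTL14 and is recognised by reader proteins that change the fate of the RNA. IGF2BP1, IGF2BP2 and IGF2BP3 bind methylated messenger RNA through KH domains and stabilise it; IGF2BP1 and IGF2BP3 are oncofetal proteins, made in the embryo and again in many tumours. HNRNPA2B1 and HNRNPC are abundant nuclear RNA-binding proteins that act in splicing and microRNA processing, and HNRNPC binds uridine tracts that methylation unfolds. METTL16 methylates a spliceosomal small nuclear RNA and the MAT2A transcript, METTL5 the RNA of the small ribosomal subunit and ZCCHC4 that of the large one, and PCIF1 the adenosine next to the cap of messenger RNA.

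The genes lie on hg38 at chr17:48996558-49056145 (IGF2BP1), chr3:185643130-185825042 (IGF2BP2, minus strand), chr7:23310209-23470491 (IGF2BP3, minus), chr7:26189927-26200746 (HNRNPA2B1, minus), chr14:21209147-21269442 (HNRNPC, minus), chr17:2415715-2511888 (METTL16, minus), chr2:169811757-169824905 (METTL5, minus), chr4:25312774-25370383 (ZCCHC4, plus) and chr20:45934683-45948020 (PCIF1, plus). Gene ends and strands come from RefSeq tables on GRCh38.p14, which give no exons, so an interval inside a gene is placed in the gene body only. The RefSeq promoter table, with 250 bases before each annotated start and 50 after, held 9 promoters of 8 of these genes, IGF2BP2 having a pair of starts. Printed here, 5′ to 3′ along transcription, are the starts that separate the genes in the lists: HNRNPC and METTL16, open in all 10 lists; ZCCHC4 and PCIF1, which share a motif with METTL16; and both starts of IGF2BP2, which differ most in composition. Capitals mark the matches to 8 motifs searched on both strands: the GC box as GGGCGG, the ETS core as CCGGAAG, part of the NRF1 site as TGCGCA, the YY1 core as AAGATGG, the TATA box as TATAAA, the CCAAT box by its own letters, the AP-1 site as TGANTCA and the E-box as CACGTG. The regions are chr14:21269393-21269692 (HNRNPC), chr17:2511839-2512138 (METTL16), chr4:25312524-25312823 (ZCCHC4), chr20:45934433-45934732 (PCIF1), chr3:185824993-185825292 (IGF2BP2, upstream start) and chr3:185821093-185821392 (IGF2BP2, second start).
HNRNPC: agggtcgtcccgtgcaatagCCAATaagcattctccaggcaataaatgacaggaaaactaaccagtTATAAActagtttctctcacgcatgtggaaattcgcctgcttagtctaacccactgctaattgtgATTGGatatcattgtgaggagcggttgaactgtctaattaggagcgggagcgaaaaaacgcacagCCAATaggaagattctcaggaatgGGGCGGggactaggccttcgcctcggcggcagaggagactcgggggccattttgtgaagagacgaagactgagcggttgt
METTL16: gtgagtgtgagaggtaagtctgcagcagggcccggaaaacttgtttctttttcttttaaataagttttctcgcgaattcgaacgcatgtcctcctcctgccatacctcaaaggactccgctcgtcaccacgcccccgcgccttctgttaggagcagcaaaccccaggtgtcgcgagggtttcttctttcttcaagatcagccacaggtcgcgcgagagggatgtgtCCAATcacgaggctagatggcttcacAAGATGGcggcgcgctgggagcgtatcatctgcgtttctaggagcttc
ZCCHC4: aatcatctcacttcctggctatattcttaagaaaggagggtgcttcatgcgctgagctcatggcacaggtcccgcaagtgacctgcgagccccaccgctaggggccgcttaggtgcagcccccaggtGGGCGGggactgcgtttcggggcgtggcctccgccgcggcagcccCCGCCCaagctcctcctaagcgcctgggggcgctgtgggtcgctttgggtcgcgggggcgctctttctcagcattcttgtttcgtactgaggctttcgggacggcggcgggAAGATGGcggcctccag
PCIF1: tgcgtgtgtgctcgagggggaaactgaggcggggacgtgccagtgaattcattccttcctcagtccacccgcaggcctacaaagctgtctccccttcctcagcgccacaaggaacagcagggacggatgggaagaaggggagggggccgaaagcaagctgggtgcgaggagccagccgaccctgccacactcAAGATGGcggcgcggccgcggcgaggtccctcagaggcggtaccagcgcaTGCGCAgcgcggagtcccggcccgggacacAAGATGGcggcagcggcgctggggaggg
IGF2BP2, upstream start: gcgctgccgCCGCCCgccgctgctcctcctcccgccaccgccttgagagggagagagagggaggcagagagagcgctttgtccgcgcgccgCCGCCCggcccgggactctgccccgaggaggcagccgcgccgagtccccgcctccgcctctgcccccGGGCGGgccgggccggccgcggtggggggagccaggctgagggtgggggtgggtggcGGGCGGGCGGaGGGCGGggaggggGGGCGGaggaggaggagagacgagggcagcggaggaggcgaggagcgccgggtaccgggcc
IGF2BP2, second start: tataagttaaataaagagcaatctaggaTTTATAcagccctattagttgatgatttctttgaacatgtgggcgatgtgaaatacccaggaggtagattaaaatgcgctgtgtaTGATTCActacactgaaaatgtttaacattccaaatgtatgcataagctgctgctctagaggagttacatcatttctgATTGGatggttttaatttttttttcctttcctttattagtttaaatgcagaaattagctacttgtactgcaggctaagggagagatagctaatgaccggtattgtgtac

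The YY1 core was found in 3 of the 9 promoters, those of METTL16, ZCCHC4 and PCIF1, and in 6.04% of all 22199 coding-gene promoters of the table. Counted from the start base as 1, with no base 0, it lies at bases 3 to 9 in METTL16, at bases 34 to 40 in ZCCHC4 and at bases -58 to -52 and 23 to 29 in PCIF1, each time read along transcription. The GC box was in 4 of 9 (56.3% of all promoters) and the CCAAT box in 4 of 9 (34.7%), where HNRNPC holds 3 copies. The ETS core was in METTL5 (12.8% of all), the NRF1 letters in PCIF1 (9.88%), the E-box in IGF2BP3, with 2 copies (8.34%), and AP-1 in the second start of IGF2BP2 (6.15%). The TATA box was in HNRNPC and the second start of IGF2BP2 (9.47%). A match is a stretch of letters and shows no binding. The upstream start of IGF2BP2 was 80.7% G and C with 38 CpG and 7 GC boxes, and its second start was 35% with 3 CpG and no GC box. All promoters of the table had a median of 62.3% (quartiles 53.0% and 70.0%) and 21 CpG, so these 2 starts of the same gene lie on either side of the quartiles. The others ran from 49.3% (HNRNPC) to 68.3% (METTL5).

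These loci held 40 intervals in LOVO shMETTL3 with olaparib, 29 in LOVO shControl with olaparib, 10 in LOVO untreated shMETTL3, and 36 (scored) and 29 (merged) in LOVO untreated shControl. In RKO they held 30 in shMETTL3 with olaparib, 27 in shControl with olaparib, 6 in untreated shMETTL3, and 21 (scored) and 27 (merged) in untreated shControl. The untreated shMETTL3 lists are thus the lowest of each line here, as they are in total length. Per 100 kb of gene window, the 9 genes had 3.95 intervals in LOVO shMETTL3 with olaparib, against 2.38 over the windows of all coding genes. In RKO untreated shMETTL3 they had 0.592, against 0.388. The density at the 9 genes was above that over all coding genes in each of the 10 lists. IGF2BP2, the longest gene here, held the most intervals of the 9 genes in all 5 LOVO lists, with 14, 9, 3, 12 and 11 in the order above. In RKO it held 8, 5, 1, 4 and 6, and METTL5 held 5, 6, 2, 4 and 6, so that IGF2BP2 led alone in shMETTL3 with olaparib only. IGF2BP1 held 2, 2, 0, 2 and 2 intervals in the LOVO lists, in the order above, and 0, 1, 0, 0 and 1 in the RKO lists.

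**Figure D1:**
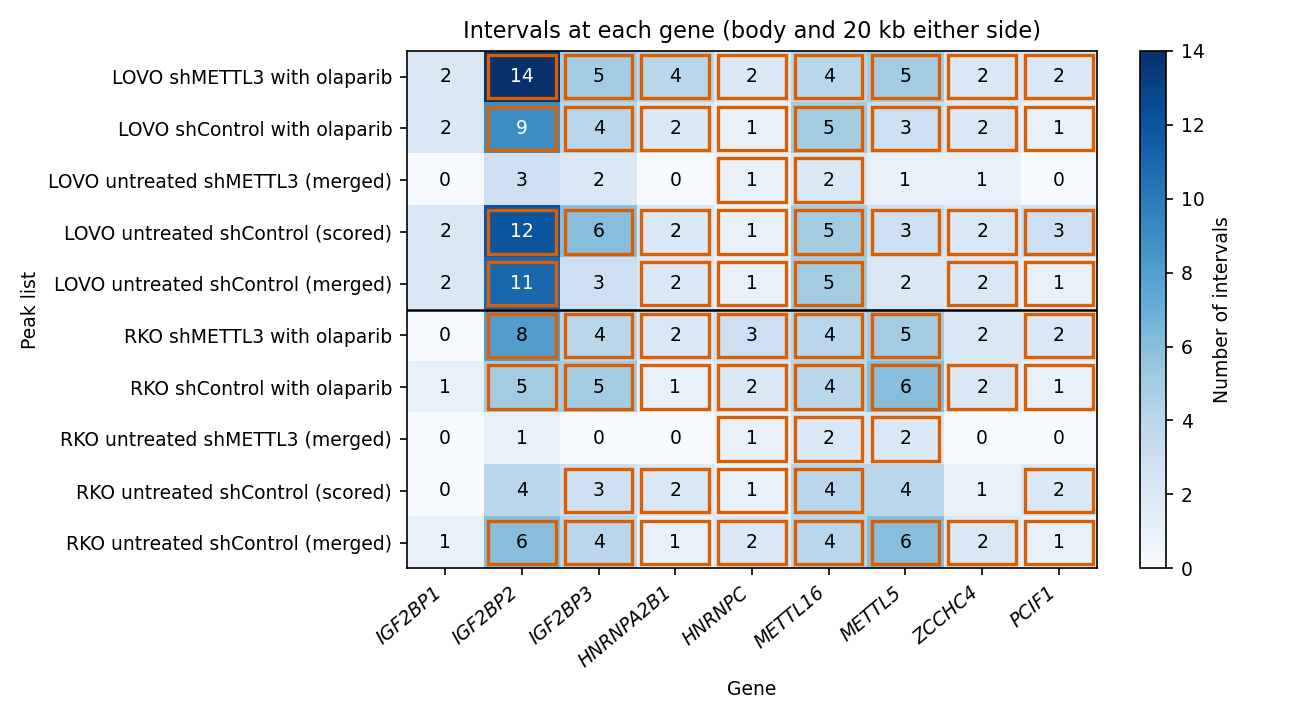
Number of intervals overlapping each gene or its 20 kb flanks (columns) in each of the 10 peak lists (rows; LOVO above the line, RKO below it), with an orange frame where an interval lies within 1000 bp of a gene end. HNRNPC and METTL16 are framed in all 10 rows and IGF2BP1 in none; the untreated shMETTL3 rows hold 10 (LOVO) and 6 (RKO) intervals in all.

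A gene was called open at an end where an interval lay within 1000 bp of either annotated end. Of the 9 genes, 8 were open in LOVO shMETTL3 with olaparib, 8 in LOVO shControl with olaparib, 2 in LOVO untreated shMETTL3, and 8 (scored) and 6 (merged) in LOVO untreated shControl. The shares of all coding genes open in the same lists were 58.5%, 53.2%, 35.8%, 55.8% and 51.5%. In RKO, 7 were open in shMETTL3 with olaparib, 8 in shControl with olaparib, 3 in untreated shMETTL3, and 5 (scored) and 8 (merged) in untreated shControl; the shares of all coding genes were 55.4%, 52.3%, 25.3%, 47.6% and 54.9%. HNRNPC and METTL16 were open in all 10 lists, a pattern they share with 4024 other coding genes. HNRNPA2B1 and PCIF1 were open in 8, all but the untreated shMETTL3 list of each line, as were 1139 other genes. IGF2BP2, IGF2BP3 and METTL5 were open in 7 and ZCCHC4 in 6, each in its own set of lists. IGF2BP1 was open in none, as were 7096 other genes. The pattern of METTL5 was shared with 9 other genes and that of ZCCHC4 with 21.

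**Figure D2:**
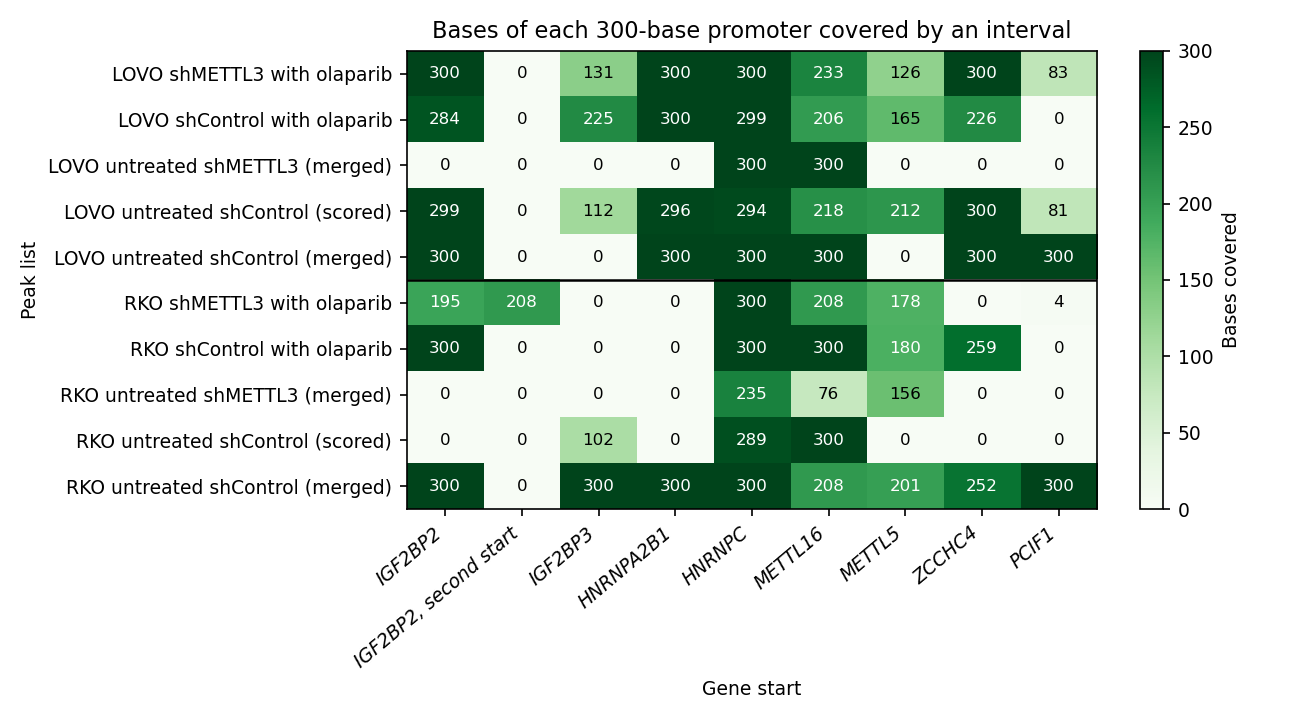
Bases of each 300-base RefSeq promoter (columns) covered by an interval in each of the 10 peak lists (rows; LOVO above the line, RKO below it). HNRNPC is covered by 235 to 300 bases and METTL16 by 76 to 300 bases in every list, and the second start of IGF2BP2 is covered in RKO shMETTL3 with olaparib alone, by 208 bases.

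Among the IGF2BP readers, IGF2BP1 had no interval within 1000 bp of a gene end in any list, and its intervals were inside the gene. In LOVO, a region at chr17:49035584-49036274, joined over the lists, had an interval in 4 of 5 lists, with scores of 8.41 in shMETTL3 with olaparib, 9.92 in shControl with olaparib and 8.57 in untreated shControl, between percentiles 43.4 and 64.8 of their lists. It was missing in untreated shMETTL3. Another LOVO region, chr17:49014339-49014727, stood in both untreated shControl lists and in no other, and chr17:49016860-49017044 stood in both olaparib lists and in no other. In RKO, chr17:49032283-49032853 stood in shControl with olaparib (score 5.97) and in the merged list of untreated shControl. No region of IGF2BP1 was found in both lines. Over all coding genes, 23.7% of the regions away from a coding-gene end were.

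IGF2BP2 held 20 regions, counted by joining overlapping intervals over the 10 lists. Of these, 6 were seen in both lines, 10 in LOVO alone and 4 in RKO alone. Over all coding genes the shares were 35.8%, 40.1% and 24.1% in that order. The most widely shared region of IGF2BP2 lies 17.2 kb inside the gene, at chr3:185807643-185808074, in 9 of 10 lists. Its scores in LOVO were 15 in shMETTL3 with olaparib, 13.4 in shControl with olaparib and 13.0 in untreated shControl; in RKO they were 19.7, 15.6 and 19.4 in the same order. In RKO these rank at percentiles 98.4, 96.8 and 99.8 of their lists, and yet the list without it is that of RKO untreated shMETTL3. The single IGF2BP2 interval of that list lies 136.0 kb inside the gene, at chr3:185688863-185689226, a region with scores of 17.2, 15.2 and 13.0 in the scored RKO lists in the same order. In LOVO it scored 10.5 in shMETTL3 with olaparib and 8.29 in untreated shControl, and had no interval in shControl with olaparib.

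LOVO and RKO differed in which other parts of IGF2BP2 had intervals. A region 38.6 kb inside the gene (chr3:185786232-185786728) stood in all 5 LOVO lists and in none of RKO. A region 28.2 kb inside (chr3:185796326-185797334) stood in all 5 LOVO lists, with scores of 13.9, 13.4 and 14.7 in shMETTL3 with olaparib, shControl with olaparib and untreated shControl. In RKO it stood in both untreated shControl lists, with a score of 7.88, and in neither olaparib list. The far end of the gene had an interval in 4 LOVO lists (joined region chr3:185642907-185643347, scores 8.31 to 12.8) and in no RKO list, and a region 147.6 kb inside stood in 3 RKO lists and no LOVO list. In untreated shMETTL3 of LOVO, the intervals at 17.2, 28.2 and 38.6 kb were the 3 left of the 11 in the merged shControl list.

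The upstream start of IGF2BP2, the G- and C-rich promoter printed above, had an interval in 7 lists and none in untreated shMETTL3 of either line or in the scored list of RKO untreated shControl. Its scores were 8.11, 6.58 and 8.49 in LOVO shMETTL3 with olaparib, shControl with olaparib and untreated shControl, below the median of each list (percentiles 41, 26.5 and 45.7). In RKO they were 6.77 in shMETTL3 with olaparib and 3.97 in shControl with olaparib (percentiles 33.8 and 3.73). The second start, the A- and T-rich promoter printed above, had an interval in 1 list alone, RKO shMETTL3 with olaparib (chr3:185821122-185821329, 208 bp, score 6.29, percentile 27.8), which covers 208 of its 300 bases. The same list also held an interval of 239 bp just inside the upstream start with a score of 3.34.

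IGF2BP3 held 7 regions, 2 in both lines, 3 in LOVO alone and 2 in RKO alone (35.8%, 40.1% and 24.1% over all coding genes). It had a different region inside the gene in each line. A region 4.8 kb inside it (chr7:23465453-23465949) stood in all 5 LOVO lists, with scores of 14.8 in shMETTL3 with olaparib, 12.2 in shControl with olaparib and 12.6 in untreated shControl (percentiles 83.7, 81.8 and 77.5), and in no RKO list. A region 122.9 kb inside it (chr7:23347085-23348026) stood in 4 of 5 RKO lists and in no LOVO list; it was missing in RKO untreated shMETTL3. The gene start had intervals in 7 lists, with low scores in the 6 of them that carry one. In LOVO the highest at the start was 5.57 in shMETTL3 with olaparib, 3.68 in shControl with olaparib and 4.32 in untreated shControl, at percentiles 15.5, 1.01 and 3.26. In RKO it was 5.38, 5.08 and 4.37, at percentiles 18.2, 13.9 and 6.53. Neither untreated shMETTL3 list held one, and in LOVO the merged shControl list lacked it too. Beyond the far end of IGF2BP3, an end of MALSU1, a mitochondrial ribosome assembly factor, had an interval in 9 lists, all but RKO untreated shMETTL3, where the whole IGF2BP3 window was empty.

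**Figure D3:**
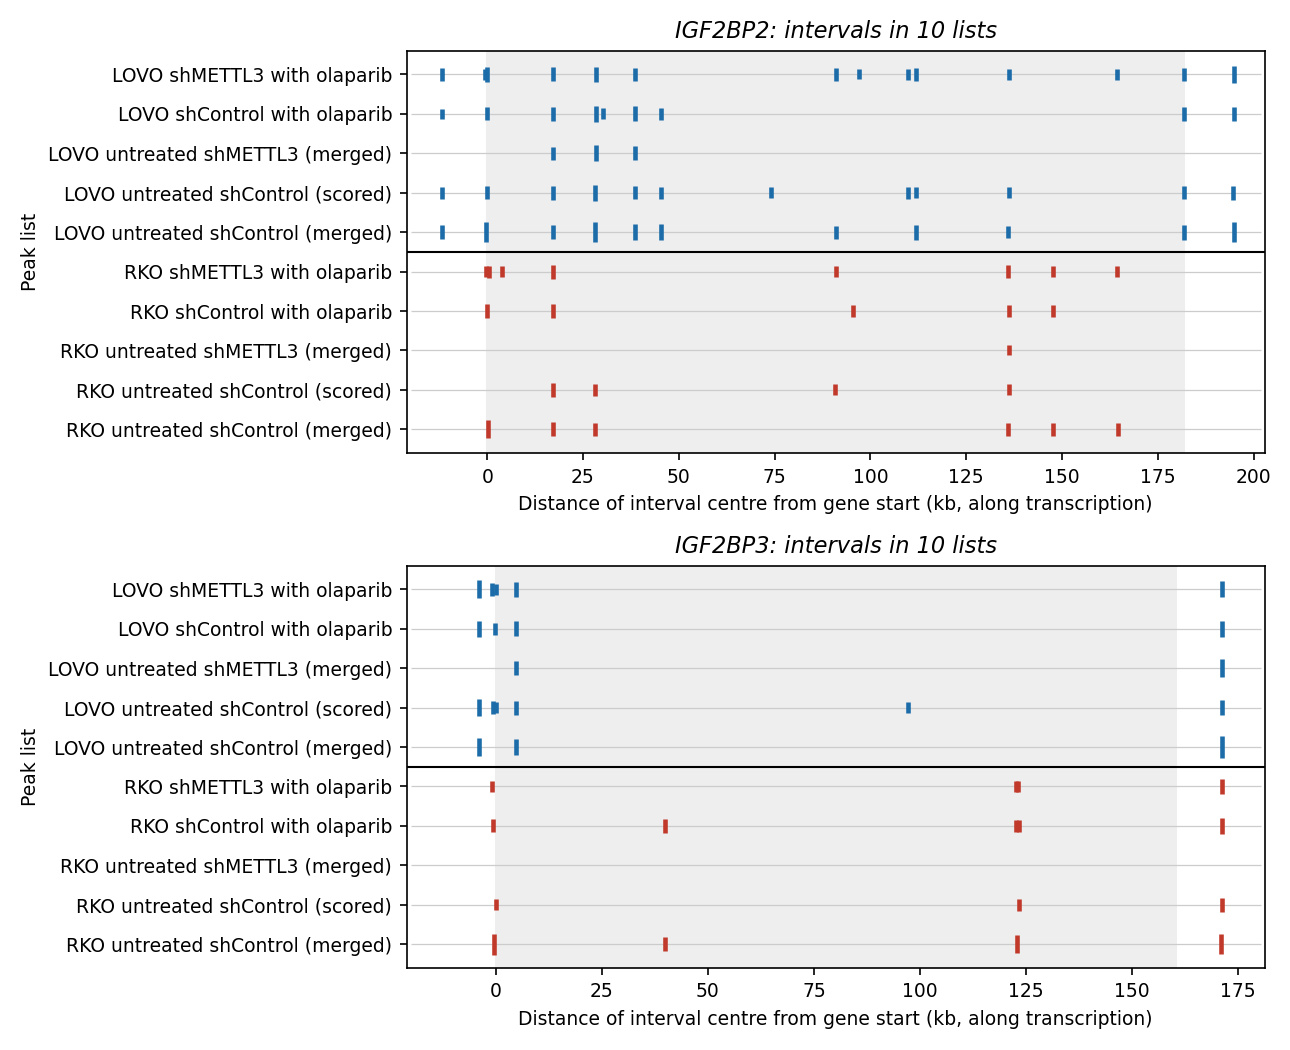
Centres of the intervals at IGF2BP2 (top) and IGF2BP3 (bottom) as distance from the gene start in kb along transcription, in the 10 peak lists (LOVO blue, RKO red; the gene body is shaded). At IGF2BP2 the intervals at 17.2 kb stand in 9 lists; at IGF2BP3 those at 4.8 kb stand in the 5 LOVO lists and those near 122.9 kb in 4 RKO lists.

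The starts of the HNRNP readers differed in score. The HNRNPC start had an interval in all 10 lists (region chr14:21269230-21270203). Its score was 21.3 in LOVO shMETTL3 with olaparib, 17.4 in LOVO shControl with olaparib and 16.1 in LOVO untreated shControl, and 14.2, 13.7 and 10.9 in the same RKO groups. These are percentiles 97.3, 98.3 and 91.7 in LOVO and 89.0, 92.7 and 84.5 in RKO. In the merged lists its width was 528 bp in LOVO untreated shMETTL3, against 974 bp in LOVO untreated shControl, and 347 bp in RKO untreated shMETTL3, against 783 bp in RKO untreated shControl. The median width over the whole list was 480 bp in LOVO untreated shMETTL3, against 571 bp in LOVO untreated shControl. It was 253 bp in RKO untreated shMETTL3, against 429 bp in RKO untreated shControl. Intervals were thus narrower over the whole untreated shMETTL3 lists. In LOVO the HNRNPC interval also narrowed relative to its list, from width percentile 83.1 in untreated shControl to 57.6 in untreated shMETTL3. In RKO its width percentile was 77.5 in untreated shControl and only slightly lower in untreated shMETTL3. Why the lines differ was not tested.

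HNRNPA2B1 starts opposite CBX3, which encodes a heterochromatin protein. Joined over the lists, 1 region, chr7:26200342-26201871, covers both starts, so as a whole it cannot be assigned to either gene. It was wide but of low score. In the merged shControl lists it measured 1522 bp in LOVO and 1418 bp in RKO, at width percentiles 97.9 and 97.6. The scores were 5.89, 6.3 and 5.81 in LOVO shMETTL3 with olaparib, shControl with olaparib and untreated shControl, at percentiles 18.1, 23.4 and 15.6. In RKO they were 3.12 in shMETTL3 with olaparib and 4.87 in untreated shControl, at percentiles 0.742 and 12.1. RKO shControl with olaparib had no interval at the start, and HNRNPA2B1 was open there only through an interval of 188 bp at the far end (chr7:26188794-26188981), 946 bp from the gene. Neither untreated shMETTL3 list held any interval in the HNRNPA2B1 window. The other region there, chr7:26187398-26188981, reaches an end of NFE2L3, a transcription factor gene, and stood in 7 lists.

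Among the methyltransferases, the METTL16 start (region chr17:2511300-2512256) had an interval in all 10 lists, with scores of 22.3 in LOVO shMETTL3 with olaparib, 14.2 in LOVO shControl with olaparib and 15.3 in LOVO untreated shControl, and of 12.4, 13.0 and 11.4 in the same RKO groups. All lie between percentiles 81.7 and 98.1 of their lists. The interval of the merged lists was 619 bp wide in LOVO untreated shMETTL3, against 874 bp in LOVO untreated shControl, and 275 bp in RKO untreated shMETTL3, against 747 bp in RKO untreated shControl. From untreated shControl to untreated shMETTL3, the width percentile of this METTL16 interval went from 77.4 to 70.2 in LOVO and from 75.4 to 57.1 in RKO. The larger change was thus in RKO here and in LOVO at HNRNPC. Of the 300-base promoter printed above, 76 bases were covered in RKO untreated shMETTL3 and 206 to 300 bases in the other lists. Beyond the far end, a region of 1116 bp (chr17:2406626-2407741) stood in all 5 LOVO lists and in no RKO list. A pair of regions near an end of MNT, a transcriptional repressor that pairs with MAX, each had an interval in 8 lists; untreated shMETTL3 held 1 such interval in RKO and none in LOVO.

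The METTL5 start had intervals of 180 to 448 bp in 7 lists, with scores of 5.51, 5.69 and 6.03 in LOVO shMETTL3 with olaparib, shControl with olaparib and untreated shControl and of 5.37 and 4.23 in RKO shMETTL3 with olaparib and shControl with olaparib. RKO untreated shMETTL3 held an interval of 187 bp there, against 448 bp in the merged list of RKO untreated shControl, while the scored list of RKO untreated shControl held none. In LOVO neither untreated merged list held it. The end of SSB, which encodes the La protein, is in the METTL5 window and had an interval in all 10 lists. A region in the METTL5 body, chr2:169815793-169816185, stood in 4 RKO lists with scores of 13.8, 10.9 and 10.9 in shMETTL3 with olaparib, shControl with olaparib and untreated shControl, and in LOVO in shMETTL3 with olaparib alone, with a score of 5.65.

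The ZCCHC4 start had an interval in 4 LOVO lists, with scores of 9.52 in shMETTL3 with olaparib, 5.25 in shControl with olaparib and 8.98 in untreated shControl. In RKO it had one in shControl with olaparib (score 6.07, percentile 26.7) and in the merged list of untreated shControl, and none in shMETTL3 with olaparib, untreated shMETTL3 or the scored list of untreated shControl. ANAPC4, a subunit gene of the anaphase-promoting complex beyond its far end, had an interval at an end in 9 lists, all but RKO untreated shMETTL3. The PCIF1 start had intervals in 8 lists. In the merged shControl lists it was 1767 bp wide in LOVO and 1838 bp in RKO (width percentiles 99.4 and 99.7), whereas the scored lists hold 1 or 2 pieces that cover 647, 152 and 260 bp in LOVO shMETTL3 with olaparib, shControl with olaparib and untreated shControl. In RKO the pieces cover 842, 528 and 195 bp in the same groups. The highest score at the start was 8.41, 5.42 and 6.83 in those LOVO lists and 6.4, 7.86 and 6.49 in those RKO lists, all below the median of their lists.

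Untreated shMETTL3 was set against untreated shControl in the merged lists to ask which sites persist when METTL3 is knocked down. In LOVO, 4 of the 6 genes open in shControl (IGF2BP2, HNRNPA2B1, ZCCHC4 and PCIF1) had no interval at an end in shMETTL3, and HNRNPC and METTL16 kept theirs. In RKO, 5 of 8 lost it (the same 4 genes and IGF2BP3), and HNRNPC, METTL16 and METTL5 kept theirs. Over all coding genes, 31.2% of those open lost their interval in LOVO and 54.1% in RKO. No closed gene gained one, of 3 in LOVO and 1 in RKO, where 0.813% and 0.321% of all closed genes did. Single intervals went the same way: 19 of 29 were lost in LOVO (65.5%, exact binomial interval 45.7% to 82.1%), against 52.5% of the whole list, and 21 of 27 in RKO (77.8%, 57.7% to 91.4%), against 76.9%. The RKO share is near that of the whole list, and the LOVO interval holds the list's share but is wide. These binomial intervals treat sites as independent, although 11 of the 29 in LOVO lie at IGF2BP2. Whether these genes differ from the list was not tested. Set against the scored shControl lists, 6 of 8 open genes lost their interval in LOVO (all but HNRNPC and METTL16), against 36.2% of all open genes. In RKO 3 of 5 did (IGF2BP3, HNRNPA2B1 and PCIF1), against 48.8% of all open genes, and METTL5 gained one, 1 of 4 closed genes, against 1.8% of all. Intervals here and below are at the 95% level and cover counting error only, not the spread between samples.

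The intervals kept and lost differed in score. Each merged shControl interval was given the highest score percentile of the scored shControl intervals on it. In LOVO the 10 intervals kept in shMETTL3 had a median percentile of 84.6 (range 46.4 to 96.4) and the 19 lost had 44 (8.58 to 71.0), with 2 lacking a scored partner. Over the whole LOVO list the medians were 77.8 and 45.7. In RKO the 6 kept had 84.5 (27.9 to 93.3), with 1, at the METTL5 start, lacking a partner, and the 21 lost had 56.4 (6.53 to 99.8), with 9 lacking one; over the whole list the medians were 70.2 and 48. Width did not go with score at every start. HNRNPA2B1 and PCIF1 were among the widest 5% of intervals in both merged shControl lists, had scored partners below the median, and were lost in both lines. Of all such wide intervals of low score at gene ends, 52.8% of 388 were lost in LOVO and 54.2% of 596 in RKO; of all intervals at gene ends, 34% of 9160 were lost in LOVO and 61.3% of 11010 in RKO, so this share was above that of gene ends in LOVO and below it in RKO. Of the wide intervals with a partner at percentile 50 or more, 15.5% of 899 were lost in LOVO and 28.0% of 536 in RKO.

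**Figure D4:**
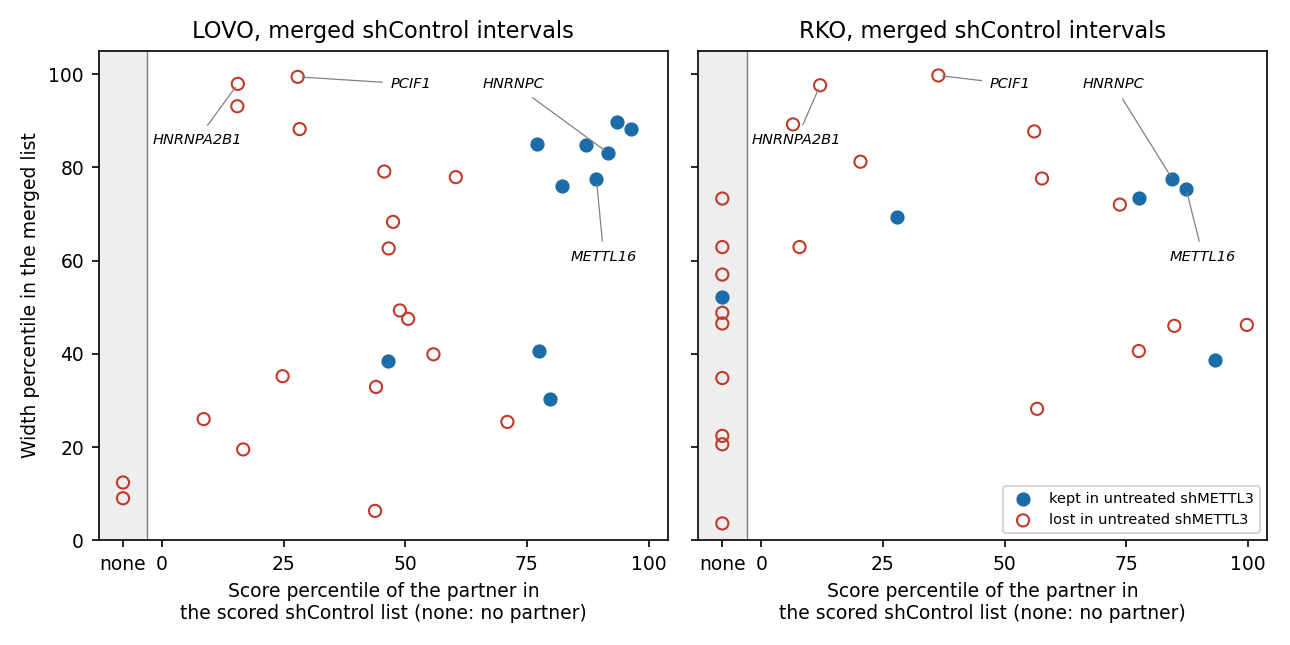
Merged untreated shControl intervals at the 9 genes in LOVO (left) and RKO (right), by the score percentile of their partner in the scored shControl list (x) and their width percentile in the merged list (y), with the grey strip for intervals without a partner. Filled points were kept and open points lost in untreated shMETTL3; the HNRNPC and METTL16 starts lie among the kept, and the HNRNPA2B1 and PCIF1 starts, above percentile 97 in width, among the lost.

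Olaparib was set against no treatment in shControl cells in the scored lists. In LOVO the 9 genes had the same state with and without olaparib: all 8 open genes kept an interval at an end (7.47% of all open genes lost theirs) and IGF2BP1 stayed closed (3.49% of all closed genes gained one). Set against the merged untreated list, IGF2BP3 and METTL5 gained one in LOVO (9.23% of all closed genes did), and in scored lists of equal length these 2 genes and HNRNPA2B1 did (11.6% of all). In RKO the 5 open genes still had an interval at an end (2.36% of all open genes had none left). IGF2BP2, METTL5 and ZCCHC4, 3 of the 4 closed ones, gained one, against 11.1% of all closed genes. These same 3 genes were open in the other, merged list of RKO untreated shControl, and set against that list none gained an interval. HNRNPA2B1 kept its state in RKO through its far end. At the start alone it lost its interval with olaparib. IGF2BP3 kept its state in RKO through another interval. That at chr7:23470372-23470543 was lost, and one further upstream, chr7:23471078-23471384, was gained. Of single intervals, 9 of 36 were lost in LOVO (25%, 12.1% to 42.2%, against 28.2% of the list) and 2 of 29 gained (6.9%, 0.846% to 22.8%, against 9.19%). In RKO 6 of 21 were lost (28.6%, 11.3% to 52.2%, against 11.5%) and 12 of 27 gained (44.4%, 25.5% to 64.7%, against 29.2%). With the merged untreated list in its place, 14.8% of the RKO intervals were gained. The share of the whole list was not computed for that pair.

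Under olaparib, shMETTL3 was set against shControl in the scored lists. In LOVO all 8 open genes kept an interval at an end (1.50% of all open genes lost their interval) and IGF2BP1 stayed closed (12.9% of all closed genes gained one). In RKO, ZCCHC4 lost its interval, 1 of 8 open genes (1.79% of all), and IGF2BP1 stayed closed (8.38% of all closed genes gained one). Of single intervals, 3 of 29 were lost in LOVO (10.3%, 2.19% to 27.4%, against 6.65% of the list) and 13 of 40 gained (32.5%, 18.6% to 49.1%, against 40.5%). In RKO 6 of 27 were lost (22.2%, 8.62% to 42.3%, against 10.5%) and 9 of 30 gained (30.0%, 14.7% to 49.4%, against 33.1%). The losses at IGF2BP2, HNRNPA2B1 and PCIF1 of the untreated lists were not seen in these lists, in which shMETTL3 with olaparib is longer than shControl with olaparib in both lines (51462 against 32192 intervals in LOVO, 35455 against 25855 in RKO). When the longer list was cut to the length of the shorter by score, 3 genes lost their interval in LOVO (IGF2BP3, HNRNPA2B1 and METTL5), where 15.3% of all open genes did, and 4 in RKO (the same 3 and ZCCHC4), where 14.9% did.

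Within shMETTL3, the scored olaparib list was set against the merged untreated list, so form and treatment differ together and cannot be told apart. In LOVO 6 of 7 closed genes gained an interval at an end (all but IGF2BP1), against 35.4% of all closed genes, and in RKO 4 of 6 did (IGF2BP2, IGF2BP3, HNRNPA2B1 and PCIF1), against 40.4%. Of single intervals, 30 of 40 were gained in LOVO (75%, 58.8% to 87.3%, against 67.0% of the list) and 24 of 30 in RKO (80.0%, 61.4% to 92.3%, against 81.2%). None of the 10 and 6 intervals of the untreated lists was lost. With the olaparib list cut by score to the length of the untreated one, 25% of intervals were gained in LOVO and 50% in RKO. The shares of the whole lists were not computed at that length. In LOVO 1 gene gained an interval at an end (IGF2BP2, against 5.4% of all closed genes). In RKO 0 did (4.46% of all), and METTL5 lost its interval (63.2% of all open genes did). Set against untreated shControl in the scored lists, shMETTL3 with olaparib had gained no gene in LOVO, where 8.81% of all closed genes gained an interval. In RKO it had gained IGF2BP2 and METTL5, 2 of 4 closed genes, against 15.7% of all, and both were again open in the merged list of RKO untreated shControl. Of single intervals, 6 of 36 were lost in LOVO (16.7%, 6.37% to 32.8%, against 11.2% of the list) and 9 of 40 gained (22.5%, 10.8% to 38.5%, against 28.6%). In RKO 5 of 21 were lost (23.8%, 8.22% to 47.2%, against 6.86% of the list) and 14 of 30 gained (46.7%, 28.3% to 65.7%, against 44.5%). With the merged untreated list in its place, 25.9% of 27 RKO intervals were lost and 26.7% of 30 gained. The shares of the whole lists were not computed for that pair.

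The pair of untreated shControl lists gives the one view of how far lists of the same group differ, although they also differ in form. The scored list against the merged one had lost none of 6 open genes in LOVO (3.09% of all) and gained 2 of 3 closed ones, IGF2BP3 and METTL5 (12.2% of all). In RKO it had lost 3 of 8, IGF2BP2, METTL5 and ZCCHC4 (14.4% of all), and gained none of 1 (1.50% of all). It had lost 2 of 29 intervals in LOVO (6.9%, against 12.2% of the list) and 10 of 27 in RKO (37.0%, 19.4% to 57.6%, against 36.9%). The starts of HNRNPC, METTL16, HNRNPA2B1 and PCIF1 had an interval within 1000 bp in both lists of both lines. In the scored RKO list, 0 bases of the 300-base promoters of HNRNPA2B1 and PCIF1 were covered. There, 289 were covered at HNRNPC and 300 at METTL16.

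**Figure D5:**
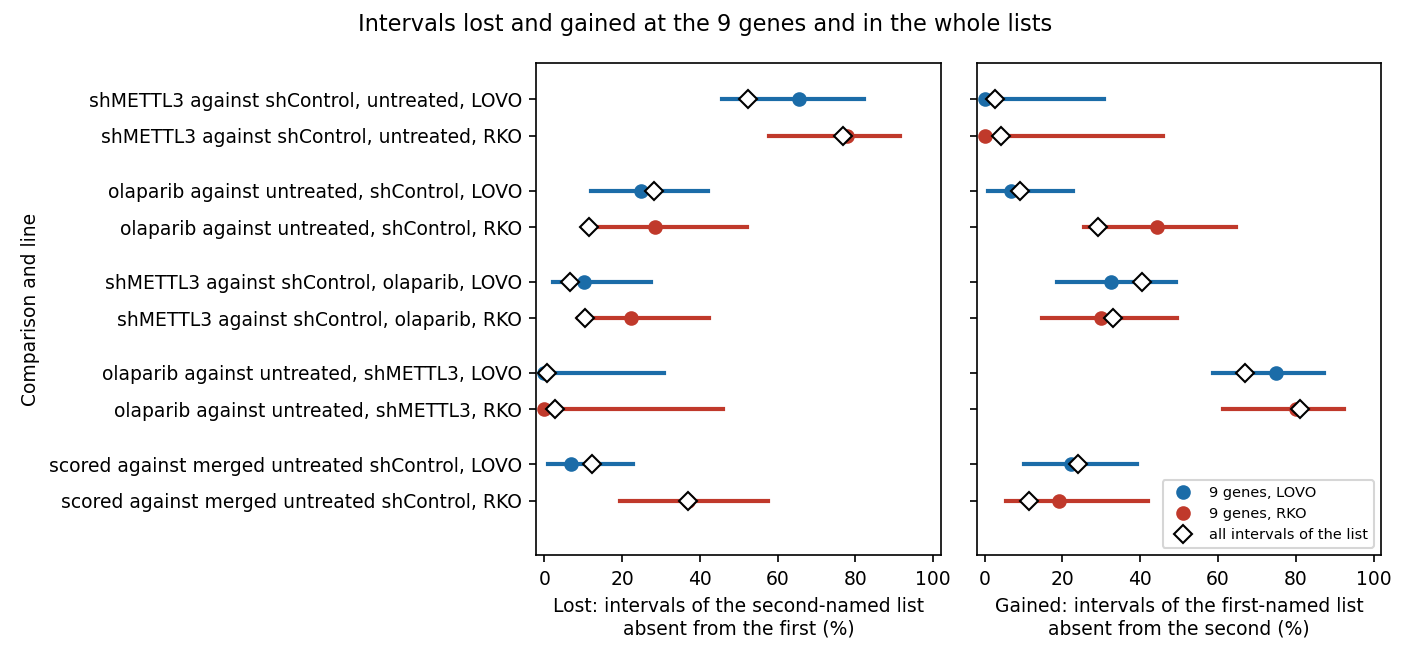
Percent of intervals lost (left) and gained (right) in 5 comparisons, LOVO in blue and RKO in red; filled points are the 9 genes with 95% exact binomial intervals and diamonds the whole list. With untreated shMETTL3, 65.5% (LOVO) and 77.8% (RKO) were lost at the 9 genes, against 52.5% and 76.9% of the whole lists.

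LOVO was set against RKO in the merged untreated shControl lists. IGF2BP3 and METTL5, 2 of the 8 genes open in RKO, had no interval at an end in LOVO, against 14.5% of all genes open in RKO. In the scored lists none of the 5 genes open in RKO was lost in LOVO (6.12% of all) and IGF2BP2, METTL5 and ZCCHC4, 3 of the 4 closed in RKO, were open in LOVO alone (21.2% of all), so the direction depends on the list. Of the RKO intervals, 12 of 27 were missing in LOVO (44.4%, 25.5% to 64.7%, against 45.4% of the list). Over all 10 lists the 9 genes held 58 regions, 21 of them in both lines (36.2%, against 35.8% of 53762 regions at all coding genes). Of the 58, 22 were in LOVO alone (37.9%, against 40.1%) and 15 in RKO alone (25.9%, against 24.1%). Of the 20 regions at a coding-gene end, 15 were in both lines (75%, against 68.9% over all coding genes), and of the 38 elsewhere, 6 were (15.8%, against 23.7%). The 3 regions in all 10 lists (5.17%, against 7.66% over all coding genes) were the starts of HNRNPC and METTL16 and the end of SSB.

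The same counts were made for 25 other genes of m6A and RNA methylation, in 3 lists: the METTL3 writer complex, the erasers and YTH readers, and other RNA methyltransferases and readers. In untreated shMETTL3 against shControl, 3 of the 23 open genes lost their interval in LOVO: WTAP, the adaptor of the METTL3 complex, TRMT112, the partner that METTL5 needs, and METTL4; of all open coding genes 31.2% did. In RKO 8 of 25 did, namely METTL14, ZC3H13, YTHDF2, YTHDC1, YTHDC2, FMR1, NSUN2 and TRMT61A, against 54.1% of all open coding genes. No gene was on both lists of losses. The share of all coding genes lost in both lines was not computed, so no difference between the lines is read from this. FMR1 and TRMT61A were closed in the merged list of LOVO untreated shControl, so they could not be lost there. Both were also closed in the scored list of RKO untreated shControl, so their RKO losses did not hold with that list. With olaparib, FMR1 lost its interval in LOVO shControl, 1 of 25 open genes (7.47% of all), and ELAVL1 and TRMT61A, 2 of the 3 closed in RKO shControl, gained one (11.1% of all). None of these 3 calls held with the merged list: FMR1 was closed in that of LOVO untreated shControl, and ELAVL1 and TRMT61A were open in that of RKO untreated shControl. Of the 8 genes of the METTL3 writer complex, METTL3, VIRMA, RBM15, RBM15B and CBLL1 were open in all 10 lists.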

How the data were processed

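A commercial kit was used to prepare the ATAC-seq libraries, per the labels' protocols. The submitters' processing notes name MACS2 2.2.7.1, Bowtie2 2.4.2, DiffBind 3.0.15 and Trim Galore 0.6.6 with hg38, without their roles. Any shift of reads for the transposase, the read filters and the joining of replicates are not given in the sources used here. As deposited by the authors, the 10 peak lists are of 2 kinds: 6 with a peak name of replicate 1 and a score, whose MACS2 column is not stated, and 4 merged lists of positions alone. In the gene windows, 6 of 183 scored intervals share a peak name with another and so repeat its score.

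Intervals were read with Python 3.11.15, pandas 2.3.3 and numpy 2.4.6, and shares were given exact Clopper-Pearson intervals (scipy 1.17.1, 95%). Lists of the same form were compared where they exist. An interval was kept if at least 1 bp overlapped the other list, otherwise lost or gained. In a test on altered LOVO and RKO lists, 13373 and 11296 intervals were removed, and 13373 and 11285 were counted as missing. The test compared the totals only and checked the counting, not a result. No count model was used, depth is unknown, and the p-values that replicates would allow could not be had. All 9 genes are named; neighbours are named where an interval lies at their end, and from each list of other genes up to 4 whose state differed, in list order. METTL4 and TRMT61A lie outside this rule and were named after their values were seen. The genes, lists and comparisons were chosen with earlier results of these data known. Alternatives were other windows, overlaps, list lengths, gene starts alone, higher scores and the other shControl list. Gene starts were used for the 8 genes in the RefSeq promoter table. Protein sequences were not used here.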

Additional observations from a re-analysis of the deposited data

How the results depend on the processing

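The number of genes open at an end stayed within 1.5 times its value in all 30 alternatives run for it (windows of 500 and 2000 bp and starts alone). Percentages of intervals lost kept within their binomial interval in 53 of 59 alternatives and those gained in 52 of 59. These binomial intervals are wide, so large shifts could stay inside them. With lists of equal length, the share gained in LOVO untreated shMETTL3 went from 0% to 30.0% of 10. In RKO, the share lost with olaparib went from 0% to 33.3% of 6 in shMETTL3 and from 28.6% to 47.6% in shControl. Counts of genes lost kept within 1.5 times in 44 of 59 and those gained in 43 of 59. The exceptions follow, and their cause was not tested except where the setting itself removes intervals. A percentage in brackets after a count of genes is the share of all open (lost) or all closed (gained) coding genes at that setting. Shares of intervals over the whole lists were not computed at these settings.

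With an overlap of 50% of the interval, 96.3% of the intervals were lost in RKO untreated shMETTL3, and 41.4% (LOVO) and 63.0% (RKO) in the scored against the merged shControl list. With a window of 500 bp, 1 gene (PCIF1, 7.8%) lost its interval with olaparib in LOVO shControl and 1 (11.8%) gained it in shMETTL3 under olaparib. In RKO, 2 (IGF2BP3, HNRNPA2B1, 2.86%) lost it with olaparib in shControl and 1 (HNRNPA2B1, 8.5%) gained it in shMETTL3 under olaparib. Also in RKO, 1 (IGF2BP3, 1.2%) lost it in shMETTL3 with olaparib against untreated shControl. With starts alone, HNRNPA2B1 was the 1 gene lost with olaparib in RKO shControl (2.26%) and the 1 gained in RKO shMETTL3 under olaparib (7.33%).

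With the other shControl list, untreated RKO shMETTL3 lost 3 genes (48.8%) and gained 1 (1.8%). Olaparib in shControl gained 2 genes in LOVO (9.23%) and 0 in RKO (2.99%), with 14.8% of RKO intervals gained. ShMETTL3 with olaparib against untreated shControl gained 2 in LOVO (IGF2BP3, METTL5, 16.3%) and 0 in RKO (5.56%). In RKO it lost 1 (ZCCHC4, 3.63%), with 26.7% of intervals gained. LOVO against RKO lost 0 and gained 3, with the shares given above.

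With lists cut to equal length, untreated RKO shMETTL3 lost 3 genes and gained 1 (METTL5), and 66.7% of its 6 intervals counted as gained. Olaparib in shControl gained 3 genes in LOVO, with 27.6% of intervals, and in RKO gained 1 and lost 2. ShMETTL3 under olaparib lost 3 genes in LOVO, with 41.4% of intervals lost, and 4 in RKO, with 11.1% of intervals gained. Olaparib in shMETTL3 gained 1 gene in LOVO, with 25% of intervals, and 0 in RKO, with 50%, where 1 was lost. ShMETTL3 with olaparib against untreated shControl lost 3 genes in each line and gained 0 in RKO, with 36.1% (LOVO) and 57.1% (RKO) of intervals lost. The scored against the merged shControl list in LOVO gained 0 genes and lost 1.

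Interval counts, in the order shMETTL3 with olaparib, shControl with olaparib, untreated shMETTL3, untreated shControl (scored, then merged), were 25, 18, 6, 23 and 19 in the gene bodies alone in LOVO and 17, 15, 3 and 9 in RKO, without its merged shControl list, whose count kept within 1.5 times. With 50 kb either side they were 62 in LOVO shMETTL3 with olaparib and 46 and 42 in RKO shMETTL3 with olaparib and shControl with olaparib. In the better-scored part of each scored list they were 18, 13 and 13 in LOVO and 11, 14 and 11 in RKO.

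No paired analysis was possible because each list is of a group and carries no replicate number of its own, and leaving out a replicate was not possible for the same reason. Depth is unknown.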

Other observations

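No gene and none of the 58 regions had opposite changes in LOVO and RKO under the 5 contrasts between groups. A region had to change in both lines to count, and 22 lay in LOVO alone and 15 in RKO alone. The untreated shMETTL3 lists were also the shortest in both lines. The same count was not made over all coding genes, so no agreement between the lines is read from it. The starts of METTL5 and IGF2BP3 were the most list-dependent of the 9 genes in LOVO: each had an interval in the 3 scored lists and in neither merged list. Both starts scored low in the scored LOVO lists, at percentiles 15, 16.3 and 18.8 (METTL5) and 15.5, 1.01 and 3.26 (IGF2BP3) in shMETTL3 with olaparib, shControl with olaparib and untreated shControl. The upstream region of METTL5 near the end of UBR3, a ubiquitin ligase gene, held a region of 613 bp, joined over the lists (chr2:169828115-169828727), with an interval in 4 RKO lists and no LOVO list, with scores of 4.52, 4.55 and 4.52 in shMETTL3 with olaparib, shControl with olaparib and untreated shControl.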
